A study of Mus musculus with 60 samples.

Results

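The candidate genes of the Idd loci are genes proposed to carry the inherited susceptibility to autoimmune diabetes that maps to these intervals of the NOD mouse genome. Of the 10 genes considered here (Ctla4, Icos, Il2, Il2ra, Slc11a1, B2m, Tnfrsf9, Cd101, Ptpn22 and Vav3), 9 had a probe set under their symbol in the annotation of the Affymetrix 430A and 430B arrays, and no probe set was listed for Cd101. These 9 genes had 18 probe sets among the 45037 of the joined arrays. Of the 18, 17 named 1 gene and 1 (1447917_x_at) named both Ntan1 and Il2, so its signal was not attributed to Il2. RNA was measured in untreated and uncultured spleen leukocytes of 30 female mice, 5 of each strain at each age: NOD, which develops diabetes, the diabetes-resistant and closely related NON, and the more distantly related C57BL/6, at 2 weeks and at 4 weeks of age. No mouse carried a transgene or received a treatment, each mouse was hybridised to a 430A and a 430B array, and no pooling of mice was described. The comparisons asked whether expression of the candidate genes in NOD differed from that in the controls before islet infiltration, and whether it changed between both ages.

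Most of these genes act in the control of T cells. Ctla4 and Icos are receptors of the CD28 family, the former an inhibitor and the latter a costimulator of T cells, and they are neighbouring protein-coding genes on chromosome 1. Il2 encodes the T cell growth factor interleukin 2 and Il2ra the alpha chain of its receptor, which regulatory T cells carry at high levels. Tnfrsf9 encodes the costimulatory receptor 4-1BB, Ptpn22 a phosphatase that restrains signalling from the antigen receptor, and Vav3 a guanine nucleotide exchange factor in the same pathway. B2m encodes the light chain of MHC class I molecules, without which they do not reach the cell surface, and Slc11a1 a metal ion transporter of the phagosome in macrophages and neutrophils. C57BL/6 mice carry a loss-of-function allele of Slc11a1.

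A probe set was kept when its MAS5 signal (a linear brightness, scaled to a common mean on every array) reached 50 in at least 5 of the 30 mice, which left 38293 of 45037 probe sets. Of the 17 probe sets that named 1 candidate gene, 15 from 8 genes were kept. Those not kept were the 1449990_at probe set of Il2 and the 1428034_a_at probe set of Tnfrsf9. Differences are given on the log2(signal + 10) scale, which understates changes of low signals, with standard errors and Benjamini-Hochberg adjusted p from limma over all 38293 probe sets, and a call is an adjusted p under 0.05. NOD 4-week replicate 3 correlated least with its group mates (median r 0.739). The ratio of 3′ to 5′ Gapdh signal, a measure of RNA integrity, was highest in NON 2-week replicate 2 (4.00) and NON 4-week replicate 1 (3.15). Its range over all mice began at 0.744. At 2 weeks it was 0.744 to 1.06 in NOD, 0.746 to 4.00 in NON and 1.02 to 2.17 in C57BL/6, so it went partly with strain. Markers of T cells differed between the groups, and fewer cells of a type and less RNA per cell cannot be told apart in these bulk samples. The summed signal of 8 T cell markers (Cd3d, Cd3e, Cd3g, Cd4, Cd8a, Cd8b1, Cd5 and Cd28) was 974.6 to 2532.5 in 2-week NON mice, 3155.6 to 6095.7 in 2-week NOD mice and 3898.5 to 7978.5 in 2-week C57BL/6 mice. At 4 weeks it was 3875.7 to 4826.4 in NON, 5784.1 to 7546.2 in NOD and 6691.4 to 9736.5 in C57BL/6. Markers of other cell types differed too. At 2 weeks 1 of 6 erythroid markers was called higher in NON than in C57BL/6 (mean sums 6731 and 2069). The B cell sum was lowest in 2-week NON mice (mean 20548, against 29365 in C57BL/6), with no B cell marker called. At 4 weeks 3 of 7 granulocyte markers were called higher in NON than in C57BL/6 (mean sums 67496 and 30216). These comparisons called 1.56% and 0.794% of all probe sets.

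No candidate gene was called between NOD and the mean of both controls at either age. With limma, 0 of 15 probe sets passed at 2 weeks, where 0.499% of all probe sets did, and 0 of 15 at 4 weeks, where 0.804% did. None of the 15 had an unadjusted p under 0.05 in either comparison, against 9.44% and 12.7% of all probe sets. The differences at 2 weeks ran from -0.48 to 0.61 on the log2 scale, with 95% intervals between -1.03 and 1.27, and those at 4 weeks from -0.31 to 0.43, with intervals between -1.02 and 0.97. Nor was any called between NOD and a single control: 0 of 15 were called against NON at 2 weeks (background 0.546%) and at 4 weeks (0.582%), and 0 of 15 against C57BL/6 at 2 weeks (0.841%) and at 4 weeks (1.13%). At an unadjusted p under 0.05 these comparisons held 4, 1, 1 and 1 of the 15, against 9.45%, 10.7%, 11.7% and 13.0% of all probe sets. In the plot of strain differences, NOD lay near 0 for both B2m probe sets (log2 difference 0.03 ± 0.17 SE and 0.11 ± 0.17 SE at 2 weeks).

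**Figure D1:**
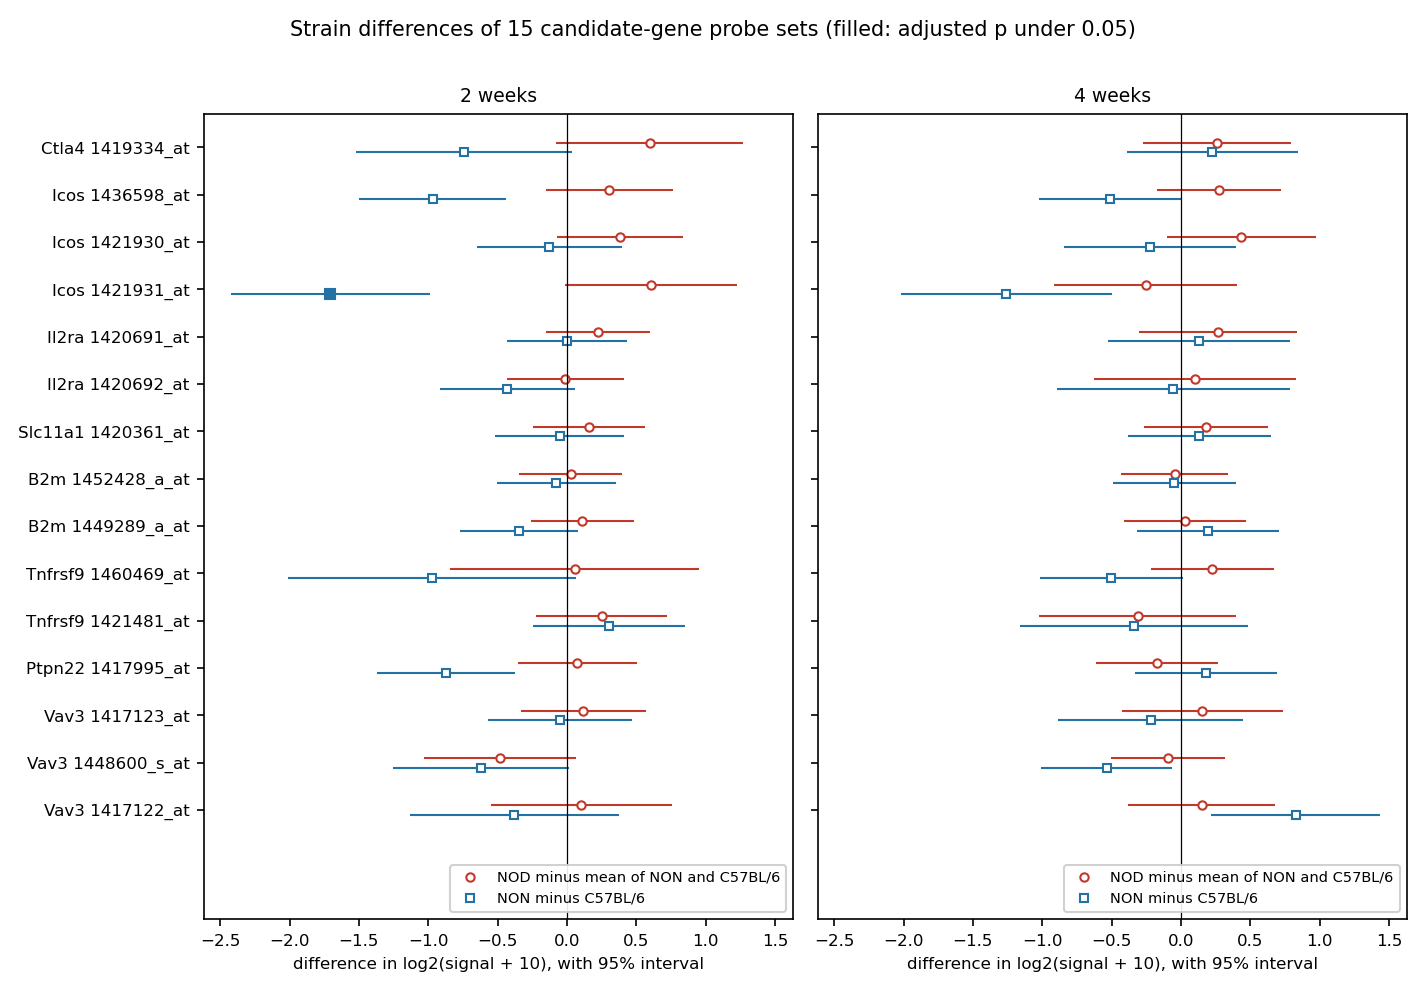
Difference of NOD from the mean of NON and C57BL/6 (circles) and of NON from C57BL/6 (squares) on the log2(signal + 10) scale for 15 probe sets of 8 candidate genes at 2 and 4 weeks, with 95% intervals from limma (n = 5 mice per group). The only filled symbol, an adjusted p under 0.05, is Icos 1421931_at between NON and C57BL/6 at 2 weeks, at -1.71, where 4 of 5 NON signals lie under the floor of 50 and the call is lost when such signals are set to 50.

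Among the costimulatory receptors, a dim probe set of Icos was the only candidate probe set called between strains, and the call rested on signals under the floor of 50. At 2 weeks, 1 of 15 probe sets was called over the 3 strains, against 1.66% of all probe sets. This was Icos 1421931_at (F-test of limma, adjusted p = 0.0234), whose signals were 55.7, 8.3, 11.3, 27.6 and 12.1 in NON mice. In NOD mice they were 69.6, 48.2, 68.5, 90.8 and 81.4, and in C57BL/6 mice 80.6, 77.0, 154.8, 83.9 and 54.3. The signal was lowest in NON, where 4 of 5 mice lay below every mouse of both other strains. The highest NON mouse, replicate 1, overlapped with them. It was also the only 2-week NON mouse to reach the floor of 50, which 4 of 5 NOD and 5 of 5 C57BL/6 mice did, so the probe set passed the filter mainly through the strains in which it was high. NON was below C57BL/6 by 1.71 on the log2 scale (difference -1.71 ± 0.34 SE, adjusted p = 0.0183), the only call of 15 in that comparison, in which 1.56% of all probe sets were called. Since levels under the floor are not resolved, this size is not exact. With every signal below 50 set to 50, an alternative chosen after seeing the data, the difference was -0.64 (95% interval -1.09 to -0.20) and was not called (adjusted p = 0.143), nor was the strain test (adjusted p = 0.240). At 4 weeks the signals were 11.6 to 80.1 in NON and 99.3 to 147.9 in C57BL/6. The unaltered difference was -1.26 ± 0.36 SE (adjusted p = 0.164). With signals below 50 set to 50 it was -0.94, with adjusted p of 0.0446 for this difference and 0.0469 for the strain test. At 2 weeks the difference of NOD from NON was 1.46 ± 0.34 SE (adjusted p = 0.0758). It passed without NON replicate 1 (1.75, adjusted p = 0.0122) and with all 30 mice in the fit (adjusted p = 0.0434). The call over the 3 strains was lost when NON replicate 2, 3 or 5 was left out (adjusted p = 0.0508, 0.0721 and 0.0708). Replicate 2, with the lowest signal (8.3), was the mouse with the highest Gapdh ratio (4.00).

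The other Icos probe sets did not pass this test. The brightest, 1436598_at, gave 508.5, 652.8, 636.1, 511.1 and 254.7 in 2-week NON mice against 815.3, 1006.1, 1157.8, 1137.6 and 773.2 in C57BL/6 mice. These groups did not overlap, as was so for 4.42% of all probe sets, and the difference was -0.97 ± 0.25 SE (adjusted p = 0.0687), which passed without NON replicate 2 (-1.07, adjusted p = 0.0410) and with all 30 mice in the fit (adjusted p = 0.0252). NOD mice lay between 644.0 and 1036.7 and overlapped with both. For 1421930_at the 3 strains overlapped and NON differed from C57BL/6 by -0.13 (95% interval -0.65 to 0.39). The 3 probe sets of Icos therefore did not give 1 size for the difference, and whether strain variants lie under any of the probes was not tested. The T cell marker sum, given above, was also lowest in 2-week NON mice. With the mean log2 level of these markers in each mouse as a covariate, the difference between NON and C57BL/6 of 1421931_at was -0.15 (95% interval -1.32 to 1.03). That level did not overlap between 2-week NON mice (6.71 to 8.12) and C57BL/6 mice (8.66 to 9.56). With it, the SE of this difference went from 0.34 to 0.55 and the calls over all probe sets from 597 to 17. This fit therefore cannot separate the T cell level from strain, and the part of that level in the result was not tested.

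Ctla4, represented by a single probe set, also had its lowest 2-week mean in NON, with no call between strains. Its signals at 2 weeks were 131.2, 99.8, 105.1, 77.2 and 133.3 in NOD, 77.5, 11.0, 60.2, 99.8 and 44.7 in NON, and 95.0, 61.5, 145.9, 82.4 and 84.1 in C57BL/6. All 3 groups overlapped. The 11.0 came from NON replicate 2, the mouse with the highest Gapdh ratio (4.00), which had the highest 2-week NON signal for Icos 1436598_at (652.8). NOD minus NON was 0.97 ± 0.37 SE (adjusted p = 0.388), and the strain test gave an adjusted p of 0.339. At 4 weeks the means were 131 ± 22.8 in NOD, 118 ± 28.8 in NON and 108 ± 58.2 in C57BL/6 (SD, n = 5). Tnfrsf9 1460469_at ranged from 54.0 to 294.8 in NOD, from 20.5 to 228.3 in NON and from 116.8 to 214.6 in C57BL/6 at 2 weeks, and the groups overlapped (adjusted p = 0.545). The 20.5 also came from NON replicate 2.

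For the interleukin 2 pair the arrays gave little signal. The probe set of Il2 that names it alone had signals of 3.0 to 70.2 over the 30 mice, with a median of 10.6, below the floor of 50 set for testing. Il2 was therefore not tested, and no statement on its level can be drawn from these mice. Il2ra 1420691_at had means of 84.8 ± 24.8 in NOD, 69.4 ± 8.6 in NON and 70.1 ± 15.4 in C57BL/6 at 2 weeks and of 90.8 ± 37.7, 74.8 ± 18.5 and 72.4 ± 40.7 at 4 weeks (SD, n = 5). The 3 strains overlapped at both ages, and the adjusted p was 0.775 at 2 weeks and 0.822 at 4 weeks. NOD minus the mean of the controls was 0.22 (95% interval -0.15 to 0.60) at 2 weeks. The second probe set, 1420692_at, lay between 11.8 and 78.3 in all mice and was not called either.

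Of the antigen receptor signalling genes, Ptpn22 was also lowest in 2-week NON mice. It gave 318.1, 253.8, 348.8, 456.8 and 247.2 in NON against 494.1, 515.3, 750.7, 655.2 and 565.3 in C57BL/6, and 398.0, 524.3, 339.9, 390.2 and 710.5 in NOD. NON and C57BL/6 did not overlap, and NOD overlapped with both. The difference of NON from C57BL/6 was -0.87 ± 0.23 SE (adjusted p = 0.0837, and 0.0375 with all 30 mice in the fit), and the strain test gave an adjusted p of 0.155. At 4 weeks the strain means were 727 ± 149 in NOD, 877 ± 196 in NON and 784 ± 237 in C57BL/6 (SD, n = 5), and all groups overlapped. Vav3 was not called at either age by any of its 3 probe sets. Its brightest, 1417123_at, had strain means of 102 to 123 in all 6 groups. The other Vav3 probe sets did not order the strains alike: at 4 weeks C57BL/6 had the highest mean for 1448600_s_at (97.4 ± 22.9, against 64.9 ± 19.2 in NON) and the lowest for 1417122_at (34.0 ± 15.5, against 68.2 ± 27.2 in NON).

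B2m and Slc11a1 had overlapping strains at both ages. B2m 1452428_a_at had 2-week means of 9952 ± 2199 in NOD, 9477 ± 1755 in NON and 9902 ± 1254 in C57BL/6 mice (SD, n = 5; strain test adjusted p = 0.972). Slc11a1 had 328 ± 93.3, 281 ± 51.2 and 291.0 ± 48.4 at 2 weeks (adjusted p = 0.883) and 425 ± 151, 376 ± 74.0 and 338 ± 29.9 at 4 weeks (adjusted p = 0.841). Slc11a1 was not called between C57BL/6, which carries the loss-of-function allele, and either other strain at either age. These signals are RNA levels and do not measure the function of the protein. At 4 weeks 0 of 15 probe sets were called over the strains, against 1.51% of all probe sets, and 2 of 15 had an unadjusted p under 0.05, against 13.4% of all. NON minus C57BL/6 also held 0 of 15 at 4 weeks (background 0.794%), with 3 at an unadjusted p under 0.05 (9.71% of all). Over all 15 probe sets NON had the lowest of the 3 strain means for 12 at 2 weeks and for 7 at 4 weeks, where it was lowest for 34.1% and 34.0% of all probe sets. Probe sets of 1 gene share their transcript, and all 15 share the same mice.

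**Figure D2:**
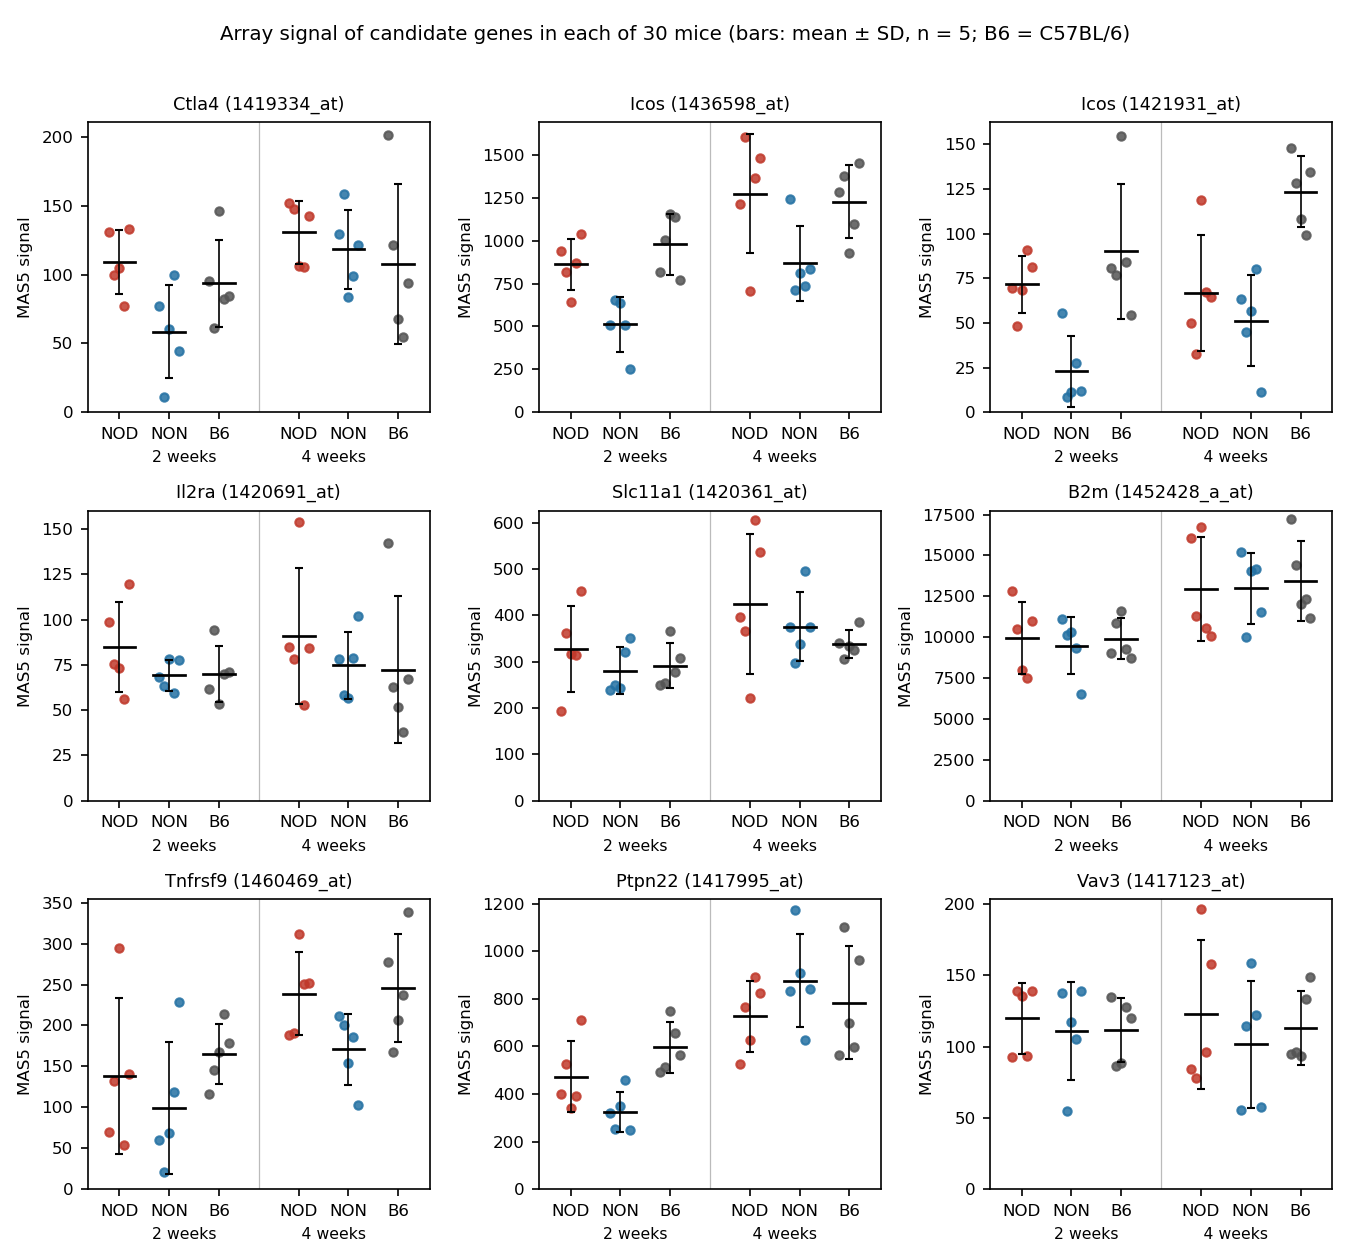
MAS5 signal of the brightest kept probe set of 8 candidate genes, and of Icos 1421931_at, in each of the 30 mice (points), with the mean and SD of each group (n = 5; B6 is C57BL/6) on a linear axis from 0. In 2-week NON mice 4 of 5 signals of Icos 1421931_at lie between 8.3 and 27.6, and Ptpn22 in NON lies between 247.2 and 456.8 at 2 weeks and between 627.4 and 1172.9 at 4 weeks.

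Ptpn22, both probe sets of B2m, and 1 probe set each of Tnfrsf9 and Icos rose between both ages. Averaged over the 3 strains, 5 of 15 probe sets, from 4 genes, rose from 2 to 4 weeks and none fell, where 3.19% of all probe sets were called and 1.31% were called as higher. The median difference over the 15 was 0.32, against 0.01 over all probe sets. Ptpn22 rose by 0.80 ± 0.13 SE (adjusted p = 0.000398), 1.71-fold on the signal scale. Tnfrsf9 1460469_at rose by 0.83 ± 0.23 SE (adjusted p = 0.0397), or 1.63-fold. Icos 1436598_at rose by 0.55 ± 0.14 SE (adjusted p = 0.0236), or 1.43-fold. Its other probe sets were not called, with differences of 0.23 ± 0.15 SE for 1421930_at (adjusted p = 0.568) and 0.41 ± 0.20 SE for 1421931_at (adjusted p = 0.377). B2m rose in both of its probe sets, by 0.42 ± 0.11 SE in 1452428_a_at (adjusted p = 0.0327) and by 0.50 ± 0.12 SE in 1449289_a_at (adjusted p = 0.0181), or 1.34-fold and 1.43-fold. With quantile normalization the former was 0.28 and was not called (adjusted p = 0.148). The calls of Tnfrsf9 and of B2m 1452428_a_at were lost when any of 17 and any of 13 of the 30 mice was left out (adjusted p up to 0.0720 and 0.0621), while those of Ptpn22, Icos 1436598_at and B2m 1449289_a_at remained without each mouse.

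Promoters are shown for the genes with a probe set that rose with age. RefSeq promoters on mouse build GRCm38.p6, from 250 bases before to 50 bases after the annotated start, were held for 8 of the 9 genes with a probe set, and for B2m, Ptpn22 and Tnfrsf9 of these 4 genes. The first start in the direction of transcription is printed for each, with the plus strand 5′ to 3′, and capitals mark every match to a searched motif on either strand. The motifs were the site of interferon regulatory factors (IRF) AANNGAAA, a shortened NF-kB site GGNNTTTCC, the AP-1 site TGANTCA, the Runx site TGTGGT and the TATA box TATAAA. None of the marked matches overlaps another.
B2m (chr2:122147437-122147736): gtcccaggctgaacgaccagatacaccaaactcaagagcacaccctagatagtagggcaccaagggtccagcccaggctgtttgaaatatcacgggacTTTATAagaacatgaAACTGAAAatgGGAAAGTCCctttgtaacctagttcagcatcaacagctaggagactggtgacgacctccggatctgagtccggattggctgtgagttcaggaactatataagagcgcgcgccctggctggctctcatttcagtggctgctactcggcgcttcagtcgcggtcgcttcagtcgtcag
Ptpn22 (chr3:103859545-103859844): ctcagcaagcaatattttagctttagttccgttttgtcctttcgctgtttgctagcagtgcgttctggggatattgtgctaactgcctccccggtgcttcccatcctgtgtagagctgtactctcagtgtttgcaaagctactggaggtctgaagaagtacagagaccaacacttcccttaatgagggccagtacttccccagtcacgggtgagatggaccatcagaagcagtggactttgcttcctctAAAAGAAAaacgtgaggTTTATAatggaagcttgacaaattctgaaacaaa
Tnfrsf9 (chr4:150919905-150920204): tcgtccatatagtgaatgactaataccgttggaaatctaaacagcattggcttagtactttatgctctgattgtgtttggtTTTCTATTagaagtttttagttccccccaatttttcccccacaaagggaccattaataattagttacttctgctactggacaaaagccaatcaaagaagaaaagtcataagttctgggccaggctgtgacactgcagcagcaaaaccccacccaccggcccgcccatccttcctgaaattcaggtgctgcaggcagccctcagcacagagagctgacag
The B2m promoter held a match to the IRF site, AACTGAAA, that began 137 bases before the start, and a match to the NF-kB site on the other strand, GGAAAGTCC, that began 126 bases before the start. Of 32817 promoters of this length, 23.9% held the former motif and 5.83% the latter. Further matches to the IRF site stood in the Ptpn22 window, where AAAAGAAA began at the last base before the start, and in the Tnfrsf9 window, where TTTCTATT stood on the other strand. Matches to TATAAA on the other strand stood in the B2m and Ptpn22 windows, as such matches on either strand did in 13.6% of all promoters. The AP-1 site (7.81% of all promoters) and the Runx site (16.8%) had no match in the 3 windows. These matches describe letters in the reference sequence of C57BL/6J, not bound sites.

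Within single strains, the age change passed in NON only for Ptpn22, and the difference between strains was not shown. In NON mice Ptpn22 went from 318.1, 253.8, 348.8, 456.8 and 247.2 at 2 weeks to 834.4, 1172.9, 908.1, 627.4 and 841.7 at 4 weeks. Every 4-week mouse lay above every 2-week mouse, and the rise was 1.41 ± 0.23 SE (adjusted p = 0.00254), or 2.70-fold. With only the NON mice in the fit the adjusted p was 0.0646, and with the methods' test 0.0615. The study used its test over the ages without such adjustment, so the latter value does not say whether Ptpn22 passes there. This was 1 of 15 probe sets in NON, where 1.46% of all probe sets were called. Both ages did not overlap in NON for 3 of 15 probe sets (Ptpn22, Icos 1436598_at and B2m 1449289_a_at), against 3.50% of all probe sets. In NOD mice Ptpn22 went from 398.0, 524.3, 339.9, 390.2 and 710.5 to 524.7, 764.2, 627.9, 893.2 and 824.0, with overlap and a difference of 0.64 ± 0.23 SE (adjusted p = 0.379). In C57BL/6 mice it went to 561.9, 1100.2, 697.9, 596.0 and 962.8, again with overlap and a difference of 0.36 ± 0.23 SE (adjusted p = 0.891). The test of the difference of the age change between strains gave an adjusted p of 0.637 for Ptpn22 (unadjusted p = 0.00901 in limma) and called 0 of 15 probe sets, against 0.00261% of all, with 2 of 15 at an unadjusted p under 0.05 (6.90% of all).

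In NOD 0 of 15 probe sets were called with age (background 0.146%) and in C57BL/6 0 of 15 (0.460%), with 4 and 1 at an unadjusted p under 0.05 (8.90% and 6.70% of all). Icos 1436598_at reached 1213.1, 1604.5, 709.1, 1364.0 and 1479.5 in 4-week NOD mice, from 938.1, 818.3, 644.0, 870.0 and 1036.7. Replicate 3, the mouse with the lowest correlation with its group, was the lowest of the 4-week NOD mice. The difference was 0.52 ± 0.24 SE in NOD, 0.79 ± 0.24 SE in NON and 0.33 ± 0.24 SE in C57BL/6, with adjusted p of 0.524, 0.102 and 0.930. Tnfrsf9 1460469_at reached 188.4 to 311.9 in NOD, 102.9 to 211.3 in NON and 167.1 to 338.5 in C57BL/6 at 4 weeks, and overlapped with its 2-week range in each strain. Its second kept probe set, 1421481_at, differed by -0.01 (95% interval -0.40 to 0.39), so the Tnfrsf9 probe sets did not show 1 direction. B2m 1449289_a_at went from 3374.0 to 6049.9 up to 6904.5 to 10930.7 in NON, with no overlap (0.80 ± 0.21 SE, adjusted p = 0.0534). This difference passed when NON 2-week replicate 2, NOD 4-week replicate 3 or NOD 4-week replicate 5 was left out (adjusted p = 0.0344, 0.0328 and 0.0492). Ctla4 differed by 0.47 ± 0.19 SE over the strains (adjusted p = 0.238), Slc11a1 by 0.32 ± 0.13 SE (adjusted p = 0.233), and the Il2ra and Vav3 probe sets by -0.30 to 0.03.

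**Figure D3:**
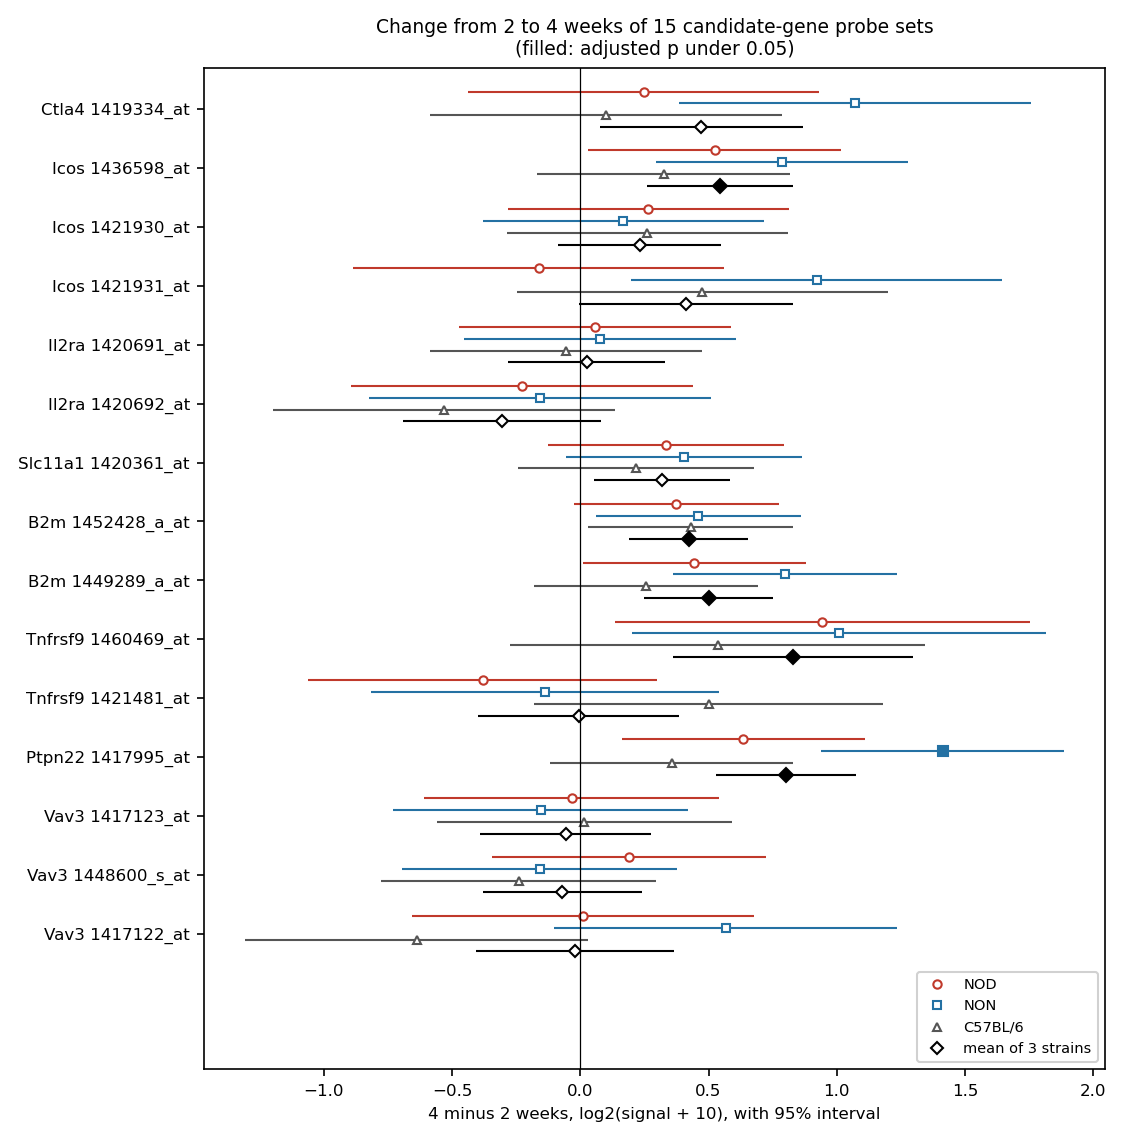
Difference of 4 minus 2 weeks on the log2(signal + 10) scale for 15 probe sets of 8 candidate genes in NOD, NON and C57BL/6 (n = 5 mice per group) and averaged over the strains, with 95% intervals from limma. Filled symbols (adjusted p under 0.05) mark the strain average of Ptpn22, Tnfrsf9 1460469_at, Icos 1436598_at and both B2m probe sets, and Ptpn22 in NON at 1.41.

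T cell markers moved in the same direction as these genes. All 8 measured T cell markers rose with age over the strains, with a median difference of 0.89, as did 4 of 5 NK cell markers (median 0.56), while 5 of 7 granulocyte markers fell (median -1.18). Of the other marker lists, 2 of 10 for macrophages and monocytes, 1 of 6 for B cells, 1 of 5 for dendritic cells and 1 of 5 for activated and regulatory T cells rose, and none of 6 erythroid and 4 pancreas acinar markers was called. None of these lists had a member that fell, apart from the granulocyte list. Of all probe sets, 3.19% were called with age over the strains and 1.31% were called as higher. When the T cell marker level of each mouse entered the model as a covariate, none of the 15 probe sets was called in any comparison, and the calls over all probe sets for the age change went from 1221 to 2. The age change of Icos 1436598_at was then 0.04 (95% interval -0.43 to 0.50), of the B2m probe sets 0.10 (-0.30 to 0.49) and 0.16 (-0.28 to 0.60), and of Ptpn22 0.37 (-0.09 to 0.83). That of Tnfrsf9 1460469_at was 1.19 (0.35 to 2.04). The marker level itself did not overlap between the ages in NON (6.71 to 8.12 and 8.64 to 8.97) or in NOD (8.35 to 8.87 and 9.12 to 9.51). It overlapped in C57BL/6 (8.66 to 9.56 and 9.36 to 9.95). The SE of the Ptpn22 change went from 0.13 to 0.22 with the covariate. Because the covariate went with age, this fit cannot separate the 2, and the part of the T cell level in the age change was not tested.

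**Figure D4:**
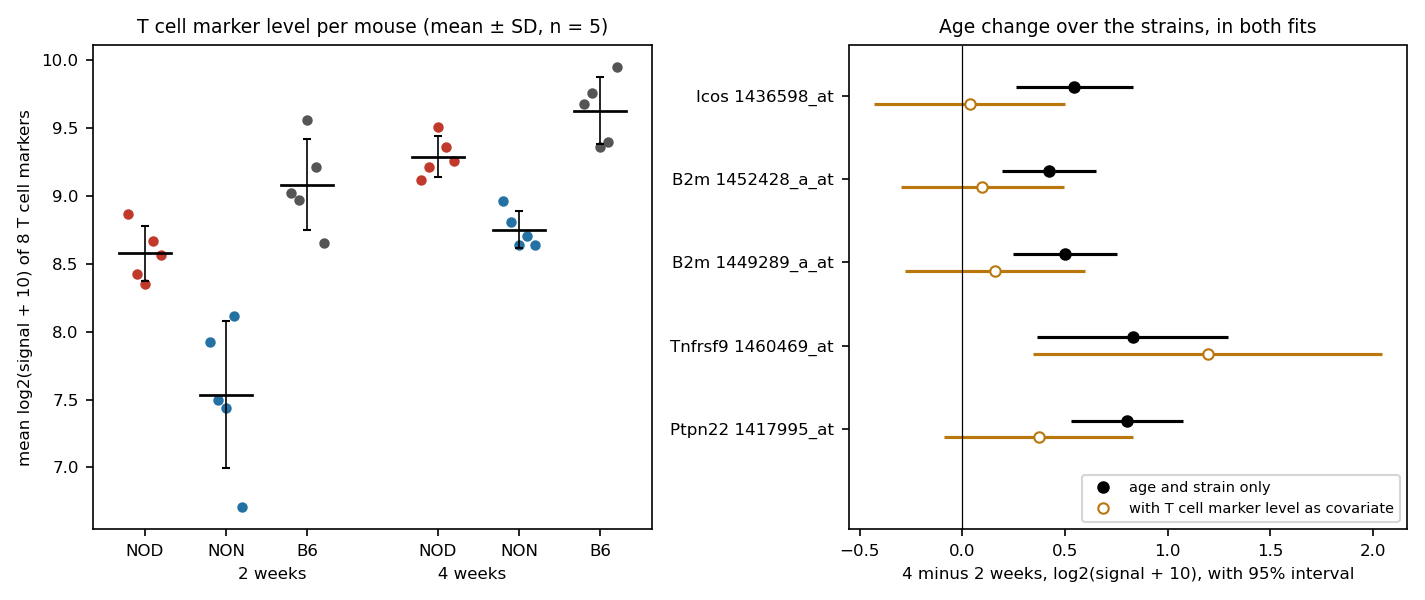
Left, mean log2(signal + 10) of 8 T cell markers in each mouse, with the mean and SD of each group (n = 5; B6 is C57BL/6), which is lowest in 2-week NON mice at 7.54 and highest in 4-week C57BL/6 mice at 9.63. Right, the age change over the strains of the 5 probe sets that rose, with 95% intervals, without and with that level as a covariate; 4 of the 5 moved towards 0 and Tnfrsf9 moved from 0.83 to 1.19.

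Other genes of the same pathways were taken from fixed lists, with the brightest probe set of each gene. Of 11 costimulation genes, Btla, an inhibitory receptor, was called over the 3 strains at 2 weeks (1.66% of all probe sets) and none was at 4 weeks. Its 2-week means were 6283 in NOD, 5010 in NON and 11649 in C57BL/6 (adjusted p = 0.0301). At 4 weeks Btla was called between NOD and C57BL/6 (-1.03 ± 0.23 SE, adjusted p = 0.0447). With age, 4 of the 11 rose and none fell: Cd86, a ligand of CD28 and CTLA-4, by 0.71 ± 0.10 SE, Cd28 by 0.86 ± 0.23 SE, and Cd27 and Tnfrsf18, receptors of the same family as Tnfrsf9, by 0.57 ± 0.15 SE and 0.57 ± 0.14 SE. The list median was 0.41, against 0.01 over all probe sets, of which 1.31% were called as higher with age. Of 10 measured IL-2 signalling genes none was called between strains, and with age only Jak1, a kinase bound to the IL-2 receptor, rose (0.50 ± 0.12 SE, adjusted p = 0.0102). Of 18 measured antigen receptor signalling genes, Cd247, the zeta chain of the T cell receptor complex, was called over the strains at 2 weeks, with means of 184 in NOD, 111 in NON and 270 in C57BL/6 (adjusted p = 0.0342). Lat, an adaptor of the same pathway, was called only between NON and C57BL/6 at that age (-1.13 ± 0.26 SE, adjusted p = 0.0437). With age 5 of the 18 rose and none fell: Fyn, Cd247, Cd3e, Lat and Ptprc, by 0.46 to 0.86.

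Of the other genes of MHC class I assembly, Tap1 and Nlrc5 were called between strains. Tap1, a subunit of the peptide transporter, was lower in NOD and NON than in C57BL/6 at both ages, with 2-week means of 395, 345 and 826 in NOD, NON and C57BL/6 and 4-week means of 557, 403 and 1202 (adjusted p = 0.00443 and 0.00486). Nlrc5, a transactivator of class I genes, had 458, 624 and 1231 in the same order at 2 weeks (adjusted p = 0.00294). It was also called as lower in NOD than in the mean of the controls at 2 weeks (-0.90 ± 0.17 SE, adjusted p = 0.0294), the only gene of this list called in that comparison. There 0.499% of all probe sets were called. Between NOD and NON at 2 weeks 0 of the 10 genes were called, so a difference of NOD from both controls was not shown. These were 2 of 10 genes at 2 weeks and 1 of 10 at 4 weeks, against 1.66% and 1.51% of all probe sets. With age 4 of 10 rose, H2-K1, H2-D1, Tapbp and Nlrc5, by 0.33 to 0.80, and none fell (list median 0.26). Of all probe sets, 1.31% were called as higher. In NOD alone, where 0.146% of all probe sets were called with age, H2-K1 rose by 0.87 ± 0.17 SE and Nlrc5 by 1.10 ± 0.21 SE (adjusted p = 0.0276 and 0.0240). The H2-K1 and H2-D1 probe sets carry the suffix that marks probes shared with other transcripts, so their genes cannot be told apart with certainty. None of 11 measured phagocyte metal and lysosome genes was called between strains or with age over the strains (median -0.05). Of 6 measured genes that were also proposed for these loci, none differed between strains, and Cd28 and Tnfrsf1b rose with age. Some genes stood on several lists, so a rise of theirs is counted in each. Among them were Cd28 (costimulation, T cells and the genes also proposed for these loci) and Cd3e (T cells and antigen receptor signalling). Tnfrsf18 stood on the costimulation list and on that of activated and regulatory T cells.

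Over the 30 mice, the genes whose log2 signal was most like that of each candidate were found among the kept probe sets of other genes. They were Prkch, Dennd2d and Cxcr3 for Icos (Pearson's r 0.87, 0.85 and 0.84), and Man1a, Ccl5 and Fyn for Ptpn22 (0.88, 0.85 and 0.84). For B2m they were Ctss, Ms4a4c and Pfdn5 (0.83, 0.81 and 0.79), for Slc11a1 Rgs3, Ctsb and Hip1 (0.83, 0.80 and 0.78), and for Vav3 Cldn18, Pwp1 and Cdyl (0.82, 0.81 and 0.79). For Ctla4 they were Mrpl33, Cd3e and Syt11 (0.77, 0.74 and 0.72), for Tnfrsf9 Adamts5, Zfand3 and Dio2 (0.78, 0.77 and 0.76), and for Il2ra Pycard, Tdo2 and Nsd1 (0.67, 0.66 and 0.64). After the mean of each group was taken out, which leaves the variation among mice of 1 strain and age, the 3 genes most like Slc11a1 were Ctsb, Serping1 and Pla2g15 (0.86, 0.82 and 0.82). Those most like Icos were then Dusp16, Tnfaip1 and Cebpb (0.83, 0.79 and 0.79), and those most like Ptpn22 were Sesn1, Relb and Nsmaf (0.76, 0.73 and 0.72). Those most like B2m were Rps24, Rps9 and Plac8 (0.80, 0.76 and 0.76), and those most like Ctla4 were Wsb2, Hspa1b and Syt11 (0.78, 0.78 and 0.75). Those most like Tnfrsf9 were Gfra2, Abhd4 and Adamts5 (0.84, 0.81 and 0.79), those most like Il2ra Pycard, Synpo2l and Slc29a2 (0.72, 0.69 and 0.69), and those most like Vav3 Cdyl, Cldn18 and Atf2 (0.85, 0.83 and 0.83). All points share the same mice and arrays, and these values are the highest of many.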

How the data were processed

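RNA of spleen leukocytes from 30 mice was hybridised to 60 Affymetrix arrays (430A and 430B). The deposited values are intensity signals, which the authors computed with MAS5 and scaled globally; their methods name a target of 100, while the 2% trimmed mean of every deposited array was 250. The files used hold no detection calls and name no genome build. After removal of 64 control probe sets per array and of the second copy of 100 probe sets on both arrays, 45037 were joined. Of these, 34945 had 1 gene symbol in the platform annotation, 932 several and 9160 none. Values were analysed as log2(signal + 10) with limma 3.58.1 in R 4.3.3 (Python 3.11.15, pandas 2.3.3 and matplotlib 3.10.9 for tables and figures). Strains were compared in the 15 mice of each age (F-test and contrasts), and age changes in all 30 mice, with Benjamini-Hochberg adjustment over the 38293 kept probe sets. Mice were grouped by the labels for strain and age. With 5 mice a group, the number of arrays limits the precision. A gene's brightest kept probe set represented it in lists, and at most 6 genes of a list were named; those called only with age or between 2 strains were named after their values were seen. The 3 genes most correlated with each candidate were named. The methods' test was an analysis of variance over the strains and a 2-sample test over the ages. Both were Benjamini-Hochberg adjusted here, whereas the study did not adjust its test over the ages. The candidate genes, lists and tests were chosen with earlier results of these data known. Alternatives are named in the closing section.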

Additional observations from a re-analysis of the deposited data

Results flagged for a closer look

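Among 90 groups of 5 mice (15 probe sets, 6 groups each), 2 had a mouse far from the rest by Dixon's criterion on the log2 scale. Chance flags about 1 in 20 groups. Both were in Icos 1436598_at: NON 2-week replicate 5 had a signal of 254.7 against 508.5 to 652.8 in the other mice of its group, and NON 4-week replicate 1 had 1241.4 against 710.1 to 834.4. The latter also had the second highest Gapdh 3′ to 5′ ratio, 3.15.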

How the results depend on the processing

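The absence of calls between NOD and the mean of the controls at both ages, with age in NOD and in C57BL/6, and for the difference of the age change was the same under each of these alternatives that could be computed: a pseudocount of 1 or 50, no filter, a filter at 100, quantile normalization, array weights, the Gapdh ratio or the T cell level as covariate, the replicate block, other mice in the fit, the methods' test, and leaving out each mouse. So was that between strains at 4 weeks. Between strains at 2 weeks, 1 probe set was called, 2 with all 30 mice in the fit, 0 with the T cell level, and 0 to 1 without single mice. With age over the strains, 5 were called, 0 with the T cell level and 3 to 5 without single mice. With age in NON, 1 was called, 2 with a pseudocount of 50, the filter at 100, quantile normalization (each adding B2m 1449289_a_at) or the Gapdh ratio (adding Ctla4, adjusted p = 0.0313), and 0 with the T cell level, with only NON mice in the fit or with the methods' test, and 1 to 2 without single mice. Deviations of same-numbered mice correlated weakly (medians 0.0158 to 0.0637 by replicate number), against medians of -0.0136 to -0.00219 with mice of other numbers. Whether mice of 1 number shared a batch was not tested. With the replicate block, 2 were called with age in NON.

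As an alternative chosen after seeing the data, leaving out NOD 4-week replicate 3, NON 2-week replicate 2 and NON 4-week replicate 1 together gave 0 calls between strains at 2 weeks and 3 with age over the strains. Setting signals below 50 to 50, also chosen after seeing the data, gave 0 calls between strains at 2 weeks, 1 at 4 weeks (Icos 1421931_at), 2 with age in NON and no other change in these counts. The Icos 1421931_at strain call was lost without NON 2-week replicate 2, 3 or 5 (adjusted p 0.0508, 0.0721 and 0.0708), and its NON minus C57BL/6 call without NON replicate 3 or 5 or C57BL/6 replicate 3 (0.0505, 0.0532 and 0.0549). The age calls of Icos 1436598_at, Ptpn22 and B2m 1449289_a_at remained without each of the 30 mice. That of B2m 1452428_a_at was lost with quantile normalization (0.28, adjusted p = 0.148) and without any of 13 mice (0.38 to 0.42, adjusted p 0.0501 to 0.0621): 2-week NOD 3 and 4, NON 5, C57BL/6 1, 4 and 5, and 4-week NOD 1 and 3, NON 1, 3 and 4, C57BL/6 1 and 2. That of Tnfrsf9 was lost without any of 17 mice (0.70 to 0.84, adjusted p 0.0517 to 0.0720): 2-week NOD 1 and 4, NON 1, 2 and 3, C57BL/6 1, 2 and 5, and 4-week NOD 3, 4 and 5, NON 1, 2 and 4, C57BL/6 1, 4 and 5. Low signals near the floor limit Il2, Il2ra and Icos 1421931_at.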
